A study of Gallus gallus with 6 samples.

Results

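The mitochondrial ribosomal protein genes were taken as every gene entry whose symbol begins with MRPL or MRPS followed by a number, whatever its level. The rule found 61 of 26591 entries, 39 named for the large subunit (MRPL) and 22 for the small subunit (MRPS). In NCBI's RefSeq annotation of another chicken assembly, 73 genes match the rule, and 12 of them had no entry under that name. Sums and counts below therefore cover only part of the family. They were measured by RNA sequencing in primary cells of chicken (Gallus gallus) embryo skeletal muscle at passage 1, in 3 libraries labelled differentiated myotube and 3 labelled proliferating myoblast. The myotube cultures had been moved to RPMI-1640 with 2% horse serum, while the myoblast cultures were kept in RPMI-1640 with 15% fetal bovine serum, and both media held 2% penicillin and streptomycin. Serum and cell state therefore changed together and cannot be told apart. Whether replicates came from separate cultures or embryos is not in the labels, and the p-values given here rest on a spread among libraries that may be technical only.

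Mitochondria carry their own ribosome, which translates the few messages encoded by mitochondrial DNA, all of them for subunits of the respiratory chain and the ATP synthase. Its RNA is made inside the organelle, but all its proteins are encoded in the nucleus, translated on cytosolic ribosomes and imported. Some of these proteins have a counterpart in the bacterial ribosome and others occur only in mitochondria. Skeletal muscle depends on this machinery for its oxidative enzymes, and inherited defects in several of the human proteins cause heart muscle or brain disease.

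The members were transcribed at moderate and mostly similar levels. Levels are given as FPKM, fragments scaled to gene length and to the mapped fragments of the library, as computed by the authors. Of the 60 members with enough reads to be tested, 55 had a mean between 10 and 100 FPKM over the 6 libraries. The median was 44.5 FPKM and the quartiles were 31.6 and 70.0 FPKM. MRPL12, whose bacterial counterpart forms the flexible stalk that recruits translation factors, had the highest mean of all members over the 6 libraries. It had 230.0, 242 and 197 FPKM in myotube libraries, against 190.0, 227 and 200 FPKM in myoblast libraries. The groups overlapped, and the log2 change of 0.17 ± 0.10 (SE, myotube minus myoblast) did not pass the test (adjusted p = 0.177, edgeR quasi-likelihood with Benjamini-Hochberg adjustment). Without myotube replicate 3, the lowest of its group, MRPL12 was called higher (0.27, adjusted p = 0.0477).

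MRPL40, found only in mitochondrial ribosomes, MRPL9, which in bacteria reaches out from the base of a stalk, and MRPS21 came next in level, with means of 155, 149 and 113 FPKM over the 6 libraries. The steps between MRPL12 and MRPL40 and between MRPL9 and MRPS21 exceeded the SDs within groups, while MRPL40 and MRPL9 lay within an SD of each other. At the low end, MRPL41 averaged 14.0 FPKM, MRPL53 13.1 FPKM and MRPL20 6.84 FPKM, and the difference between MRPL41 and MRPL53 was within their SDs. MRPL54 had between 3 and 9 counts in each library (0.246, 0.675 and 0.353 FPKM in myotube libraries and 0.314, 0.583 and 0.631 FPKM in myoblast libraries). It was too low to be tested and is the 1 member outside every count below. MRPL54 overlaps an unnamed entry on the same strand, and MRPL20 overlaps CCNL2 on the same strand. What part overlap or depth had in these low levels was not tested. Replicates varied little: the median coefficient of variation over members was 4.62% in myotube libraries and 7.67% in myoblast libraries.

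As a group the members did not move one way. Of the 60 tested, 15 were higher in myotubes, 18 were lower and 27 had no call, so 55.0% were called. Across all 15959 genes tested the same rule (adjusted p under 0.05) called 59.1%, of which 30.0% of genes were higher and 29.1% were lower. The share of members called was thus near the background. The median log2 change was -0.04 over the members and 0.0 over all genes, the quartiles of the members were -0.30 and 0.23, and the extremes were -0.73 and 2.01. Large changes were few: 9 members were called with at least a 1.5-fold change, against 40.7% of all genes, and 1 member, MRPS6, with at least a 2-fold change, against 24.9% of all genes. Counts scaled to library size for the 3 myotube and the 3 myoblast libraries did not overlap for 41 members (68.3%), and for 67.2% of all genes.

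The split between higher and lower calls was similar under all but 1 of the scalings tried. In the count test 45.5% of the called members were higher, with DESeq2's size factors 45.5%, with upper-quartile scaling 44.1% and with library totals only 39.4%. Among all called genes the shares were, in the same order, 50.7%, 49.9%, 49.5% and 46.1%. With limma on log2(FPKM + 1), 13 members were higher and 20 lower (39.4% higher, against 47.1% of all called genes). With limma on log2(TPM + 1), where every library has the same total, 8 members were higher and 29 were lower. Thus 21.6% of the called members were higher, against 39.1% of all called genes. In that fit the median of all genes moved to -0.132 and that of the members to -0.173, so the gap between these medians changed little. The gap between the shares of higher calls was wider than in the count test. The higher calls of MRPL2, MRPL9, MRPL16, MRPL44 and MRPL57 were lost on TPM and held on FPKM, while those of MRPL14 and MRPS11 were lost with limma on either unit, with DESeq2 and with library totals only. Over 15 alternative settings, 20 of the 33 calls held in each one, 8 of them higher and 12 lower, and no called member changed direction. The small changes were the ones that came and went: without myotube replicate 1 or 2 there were 7 fewer of the 33 calls, without myotube replicate 3 there were 5 fewer, and without myoblast replicate 1 or 2 there were 6 and 4 fewer. Those lost were MRPL14, MRPL16, MRPL44, MRPL9 and MRPS11 on the higher side and MRPL3, MRPL18, MRPL28, MRPL39, MRPL45 and MRPS27 on the lower side. MRPL14 was called in 4 and MRPS11 in 7 of the 15 settings.

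**Figure D1:**
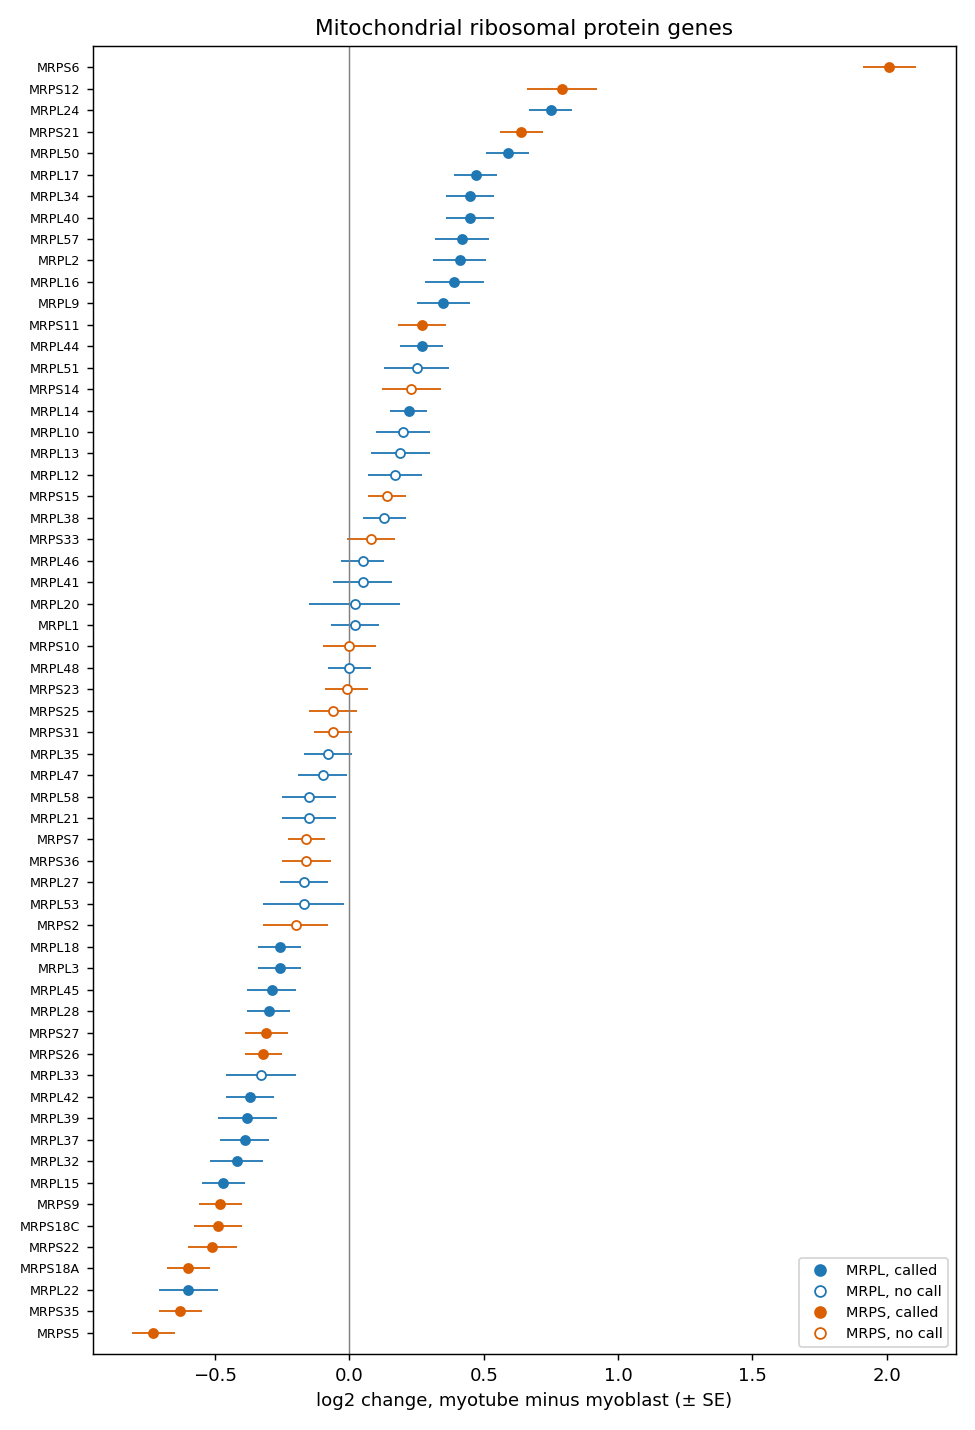
Log2 change (myotube minus myoblast, ± SE, x axis) of each of the 60 tested members, ordered from top to bottom by change. Filled points passed the test, open points did not, and colour gives the subunit in the gene's name; MRPS6 at 2.01 stands apart from the others, which lie between -0.73 and 0.79.

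Among the small-subunit genes, MRPS6 changed most. This counterpart of a bacterial protein at the side of the small subunit had 68.2, 63.8 and 68.8 FPKM in myotube libraries, against 17.2, 19.8 and 14.9 FPKM in myoblast libraries. Each myotube library was far above each myoblast library, and the rise was 4.03-fold (log2 change 2.01 ± 0.10, adjusted p = 3.29e-06). The entry spans chromosome 1, 105648428 to 105695763, in the coordinates of the deposited tables. In NCBI's RefSeq annotation of another chicken assembly (GRCg7b), SLC5A3, the gene of an inositol transporter, lies within the span of MRPS6. The deposited tables held no entry named SLC5A3, so whether the MRPS6 counts hold reads of SLC5A3 cannot be told and the MRPS6 value is uncertain.

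MRPS12, whose bacterial counterpart lies at the decoding centre where codon and anticodon pair, had 86.3, 89.2 and 87.5 FPKM in myotube libraries, against 43.5, 63.5 and 51.9 FPKM in myoblast libraries. The groups did not overlap and the change was 0.79 ± 0.13 (adjusted p = 0.000945; chromosome 32, 11859 to 12566). MRPS21 had 135, 141 and 131 FPKM in myotube libraries and 85.4, 100 and 86.6 FPKM in myoblast libraries, a change of 0.64 ± 0.08 (adjusted p = 0.000285; chromosome 25, 2381558 to 2383158). Its entry overlaps that of PRPF3, a splicing factor gene, which changed the other way: PRPF3 averaged 28.6 ± 0.822 FPKM in myotubes and 49.2 ± 2.63 FPKM in myoblasts (SD, n = 3 each). MRPS11 rose least of the 4, by 0.27 ± 0.09 on the log2 scale, and in FPKM its groups overlapped (74.8, 78.8 and 68.3 in myotube libraries, against 60.4, 71.2 and 60.8 in myoblast libraries).

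Of the small-subunit names, 8 fell. MRPS5, whose bacterial counterpart lines the entry channel of the message, had 30.0, 30.8 and 28.2 FPKM in myotube libraries, against 52.9, 53.9 and 46.6 FPKM in myoblast libraries. The highest myotube library was well below the lowest myoblast library, and the change of -0.73 ± 0.08 was the largest fall of all members (adjusted p = 0.000127; chromosome 3, 16110358 to 16154782). MRPS35, a mitochondria-specific protein, had 21.7, 22.7 and 23.4 FPKM in myotube libraries, against 35.6, 37.6 and 36.0 FPKM in myoblast libraries (-0.63 ± 0.08, adjusted p = 0.000199). MRPS22, also mitochondria-specific and in humans a gene of inherited respiratory chain deficiency, had 31.6, 30.0 and 27.8 FPKM in myotube libraries and 43.1, 46.7 and 42.4 FPKM in myoblast libraries (-0.51 ± 0.09, adjusted p = 0.00123). MRPS9, which has a bacterial counterpart, had 30.1, 30.0 and 30.2 FPKM in myotube libraries, against 44.7, 47.0 and 39.8 FPKM in myoblast libraries (-0.48 ± 0.08, adjusted p = 0.00096). In each of these genes the groups did not overlap. MRPS26 and MRPS27, both mitochondria-specific, fell by less, with changes of -0.32 ± 0.07 and -0.31 ± 0.08.

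The MRPS18 family, relatives of a single bacterial protein, was represented by MRPS18C and MRPS18A, while MRPS18B was not analysed here. MRPS18C, the small-subunit form, had 48.1, 44.3 and 48.5 FPKM in myotube libraries, against 64.6, 72.2 and 69.1 FPKM in myoblast libraries (-0.49 ± 0.09, adjusted p = 0.00183). MRPS18A, which in mammals sits in the large subunit despite its name, had 28.2, 27.1 and 26.1 FPKM in myotube libraries, against 42.8, 44.6 and 40.6 FPKM in myoblast libraries (-0.60 ± 0.08, adjusted p = 0.000293). Both fell without overlap between the groups. MRPS36, now counted as part of the alpha-ketoglutarate dehydrogenase complex and no longer as a ribosomal protein, averaged 43.5 ± 2.83 FPKM in myotubes and 50.6 ± 3.51 FPKM in myoblasts and had no call (-0.16 ± 0.09, adjusted p = 0.168).

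Among the large-subunit genes, MRPL24 rose most. This counterpart of a bacterial protein that begins the assembly of the large subunit had 112, 109 and 101 FPKM in myotube libraries, against 69.8, 65.8 and 64.4 FPKM in myoblast libraries. The groups lay far apart, with a change of 0.75 ± 0.08 (adjusted p = 0.000107; chromosome 25, 1438112 to 1439191). In RefSeq's annotation the span of HDGF, a growth factor gene that the tables do not list by name, overlaps that of MRPL24. Whether the MRPL24 counts hold reads of HDGF cannot be told. MRPL50, a mitochondria-specific protein, had 65.8, 65.7 and 62.3 FPKM in myotube libraries and 43.5, 44.9 and 45.3 FPKM in myoblast libraries (0.59 ± 0.08, adjusted p = 0.000397). MRPL40 had 196, 169 and 162 FPKM in myotube libraries, against 135, 133 and 133 FPKM in myoblast libraries (0.45 ± 0.09, adjusted p = 0.00376).

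MRPL17 and MRPL34, each with a bacterial counterpart, rose in a similar measure. MRPL17 averaged 100 ± 6.06 FPKM in myotubes and 75.4 ± 3.56 FPKM in myoblasts (0.47 ± 0.08). MRPL34 averaged 97.1 ± 5.82 FPKM in myotubes and 73.9 ± 5.57 FPKM in myoblasts (0.45 ± 0.09). The calls of MRPL24, MRPL50, MRPL40, MRPL17 and MRPL34 held in all 15 alternative settings. MRPL57, a mitochondria-specific protein, rose by 0.42 ± 0.10 and MRPL2, which in bacteria supports the peptidyl transferase centre, by 0.41 ± 0.10. MRPL16 (0.39 ± 0.11), MRPL9 (0.35 ± 0.10), MRPL44 (0.27 ± 0.08) and MRPL14 (0.22 ± 0.07) made up the 11 that rose. MRPL44, a protein with a ribonuclease fold whose human gene is linked to cardiomyopathy, had 96.9, 102 and 90.6 FPKM in myotube libraries, against 77.8, 87.0 and 84.2 FPKM in myoblast libraries. Its call was lost with limma on TPM and without myotube replicate 1, myotube replicate 2 or myoblast replicate 1.

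On the other side, 10 large-subunit names fell. MRPL22, whose bacterial counterpart lines the exit tunnel of the growing peptide, had 16.2, 18.4 and 20.5 FPKM in myotube libraries, against 26.7, 32.8 and 27.5 FPKM in myoblast libraries (-0.60 ± 0.11, adjusted p = 0.00185; chromosome 13, 12009059 to 12015782). MRPL15, with a bacterial counterpart, had 46.9, 41.2 and 42.3 FPKM in myotube libraries and 65.4, 61.8 and 60.2 FPKM in myoblast libraries (-0.47 ± 0.08, adjusted p = 0.00175). Neither gene's groups overlapped. MRPL32, which in yeast and mouse must be cleaved by a mitochondrial protease before it joins the ribosome, averaged 16.8 ± 2.02 FPKM in myotubes and 23.5 ± 1.40 FPKM in myoblasts (-0.42 ± 0.10, adjusted p = 0.00719). The remaining falls were of MRPL37 (-0.39), MRPL39 (-0.38), MRPL42 (-0.37), MRPL28 (-0.30), MRPL45 (-0.29), MRPL18 (-0.26) and MRPL3 (-0.26), each with an SE between 0.08 and 0.11.

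The 27 members without a call had changes between -0.33 and 0.25, and SEs over all tested members ran between 0.07 and 0.17. For 8 of these 27 the FPKM of the groups did not overlap. Over all genes tested, called or not, counts scaled to library size did not overlap for 67.2%, and the share among uncalled genes was not computed. MRPL33 was the nearest to a call on the lower side, with 62.9, 64.8 and 61.6 FPKM in myotube libraries and 75.9, 73.1 and 98.5 FPKM in myoblast libraries (-0.33 ± 0.13, adjusted p = 0.0553). Its difference rested in part on myoblast replicate 3: without that library the change was -0.17. MRPL58, a peptidyl-tRNA hydrolase built into the large subunit that frees stalled ribosomes, averaged 28.2 ± 1.69 FPKM in myotubes and 32.7 ± 1.32 FPKM in myoblasts (-0.15 ± 0.10, adjusted p = 0.201). MRPL48 and MRPS10 had changes nearest to zero, -0.00 ± 0.08 and 0.00 ± 0.10.

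**Figure D2:**
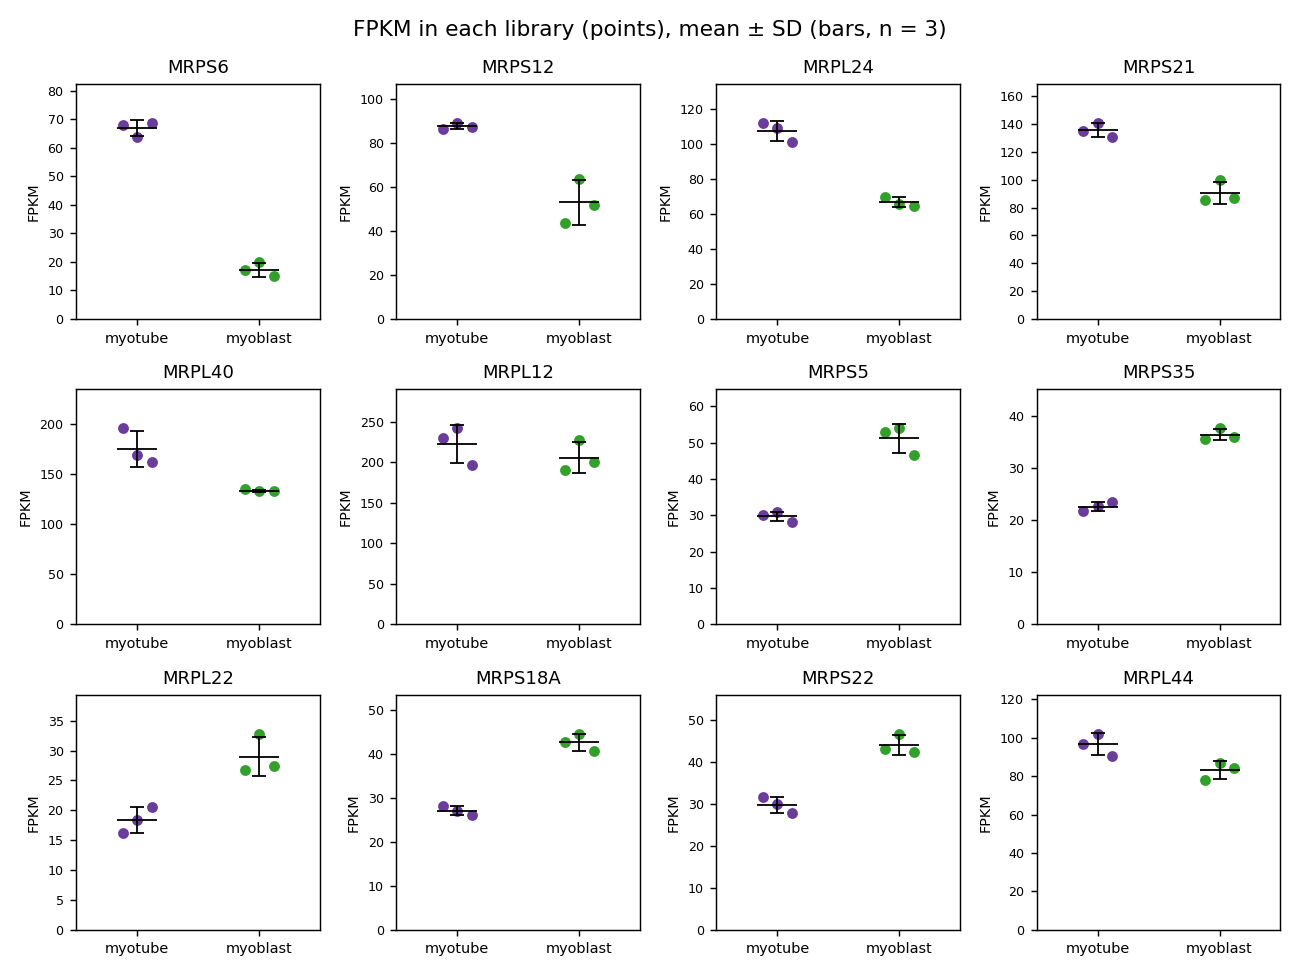
FPKM (y axis, from 0) of 12 members in each of the 3 myotube and 3 myoblast libraries (points), with mean and SD (bars). The groups are apart in every panel except MRPL12, and MRPS6 has the widest gap, 66.9 against 17.3 FPKM.

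Set side by side by name, both subunits held calls in each direction. Of the 38 tested MRPL genes 11 were higher, 10 lower and 17 without a call, with a median log2 change of 0.02. Of the 22 MRPS genes 4 were higher, 8 lower and 10 without a call, with a median of -0.11. Higher calls made up 28.9% of MRPL and 18.2% of MRPS genes, against 30.0% of all genes. Lower calls made up 26.3% and 36.4%, against 29.1%. Summed over genes, MRPL exceeded MRPS FPKM by 1.93, 1.92 and 1.82 times in myotube libraries and by 1.75, 1.77 and 1.83 times in myoblast libraries. These ratios overlapped between the groups. The MRPS sums include MRPS6, whose value is uncertain and averaged 66.9 FPKM in myotubes and 17.3 FPKM in myoblasts. Ratios, shares and sums without MRPS6 were not computed, so the comparison of the subunits depends on that entry. MRPS genes took 0.163, 0.167 and 0.164% of all summed FPKM in myotube libraries, against 0.175, 0.187 and 0.169% in myoblast libraries, without overlap. Their summed FPKM itself overlapped, with a mean of 1150 in each group, while the total over all genes was larger in myotube libraries. The MRPL share overlapped, as did both shares of counts. The difference between the subunits was not tested.

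Origin gave another view of the same genes. Of the 35 tested members with a bacterial counterpart, 11 were higher and 9 lower (median 0.02), and of the 24 mitochondria-specific ones, 4 were higher and 9 lower (median -0.06). MRPS18A, which fell (-0.60), was counted as mitochondria-specific and MRPS18C as having a bacterial counterpart. Both are relatives of a bacterial protein, so the split by origin depends on that choice. The 8 mitochondria-specific proteins of the small subunit with an MRPS name held 4 that fell (MRPS22, MRPS26, MRPS27 and MRPS35) and none that rose, with a median of -0.19. Proteins of the mitochondrial ribosome with other names are not in these counts: DAP3 rose (0.63 ± 0.09), AURKAIP1 fell (-0.40 ± 0.08) and CHCHD1 had no call. Over all genes 29.1% were lower and 30.0% higher, and whether this small subset differs from them was not tested. The 12 small-subunit proteins with a bacterial counterpart held 4 that rose and 3 that fell, with a median of 0.07. Places and origins are those known from mammalian ribosomes, and these groupings carry no test.

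The share of the transcriptome given to the members with an entry differed little, and whether the groups overlapped depended on the measure. The 61 members took 0.477, 0.487 and 0.461% of all summed FPKM in myotube libraries, against 0.480, 0.519 and 0.479% in myoblast libraries. The groups overlapped (0.475 ± 0.0128% in myotubes and 0.493 ± 0.0231% in myoblasts, SD, n = 3 each). As a share of counts, which weights long genes more, the means were 0.301% in myotubes and 0.299% in myoblasts. Without the 10 highest genes and those of the mitochondrial genome, the shares of summed FPKM were 0.53, 0.53 and 0.506% in myotube libraries. They were 0.538, 0.575 and 0.538% in myoblast libraries, and on this measure the groups did not overlap. Shares depend on the total, and all genes summed to 692839.6 to 704725.9 FPKM in myotube libraries, against 642452.0 to 656301.5 in myoblast libraries. The members' own summed FPKM was 3350, 3430 and 3190 in myotube libraries and 3080, 3390 and 3140 in myoblast libraries, with overlap.

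The cytosolic ribosome behaved otherwise. Its 61 protein genes (RPL and RPS, with RPSA and the RPLP genes) had a median level of 1300 FPKM. Of them 56 were higher in myotubes, none was lower and 5 had no call (RPL3, RPL5, RPL31, RPS2 and RPSA), a share of 91.8% called and higher where 30.0% of all genes were. At an unadjusted p under 0.05 the count was 59, in either direction, and DESeq2 called 57 higher and 1 lower. The median log2 change was 0.60 over 34 RPL genes and 0.66 over 27 RPS genes. These genes took 13.5, 15.1 and 14.8% of summed FPKM in myotube libraries, against 9.87, 10.8 and 10.1% in myoblast libraries, with every myotube library above every myoblast library.

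The ratio of cytosolic to mitochondrial ribosomal protein messages set the groups apart. It was 28.2, 31.1 and 32 in myotube libraries, against 20.6, 20.8 and 21.2 in myoblast libraries. The groups did not overlap, and the ratio of the means was 1.46. On the TPM scale 47 cytosolic genes were higher and 1 was lower, beside the 8 higher and 29 lower members given above.

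**Figure D3:**
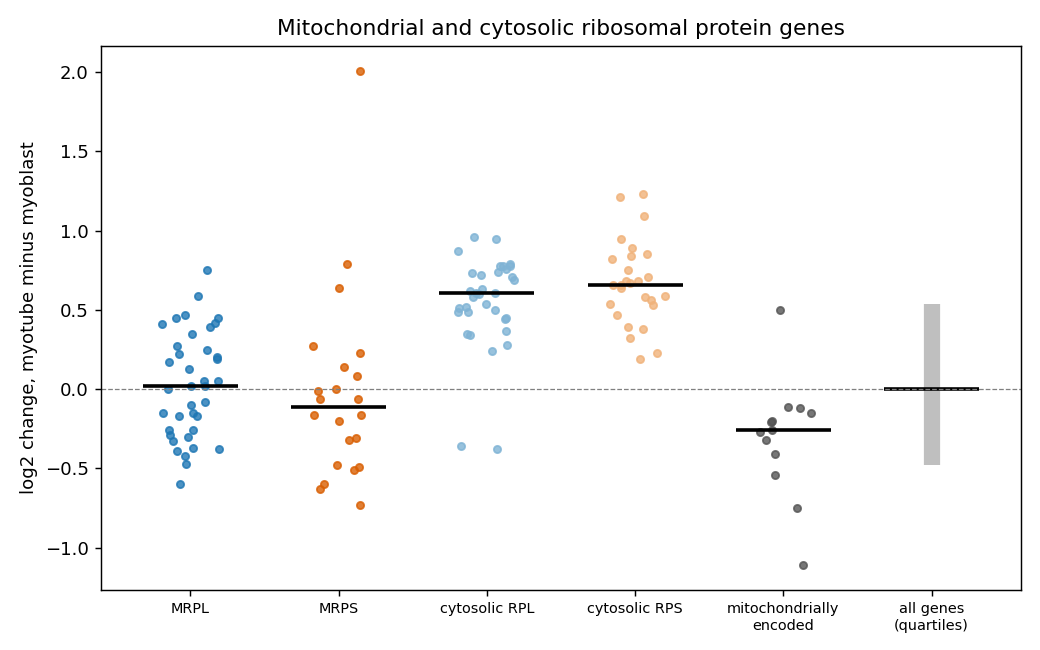
Log2 change (myotube minus myoblast, y axis) of each tested gene (points) in 5 sets, with medians (bars) and, for all 15959 genes tested, the quartiles (grey). The MRPL and MRPS genes spread to both sides of 0, with medians of 0.02 and -0.11, while all but 2 cytosolic RPL and RPS genes lie above 0.

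**Figure D4:**
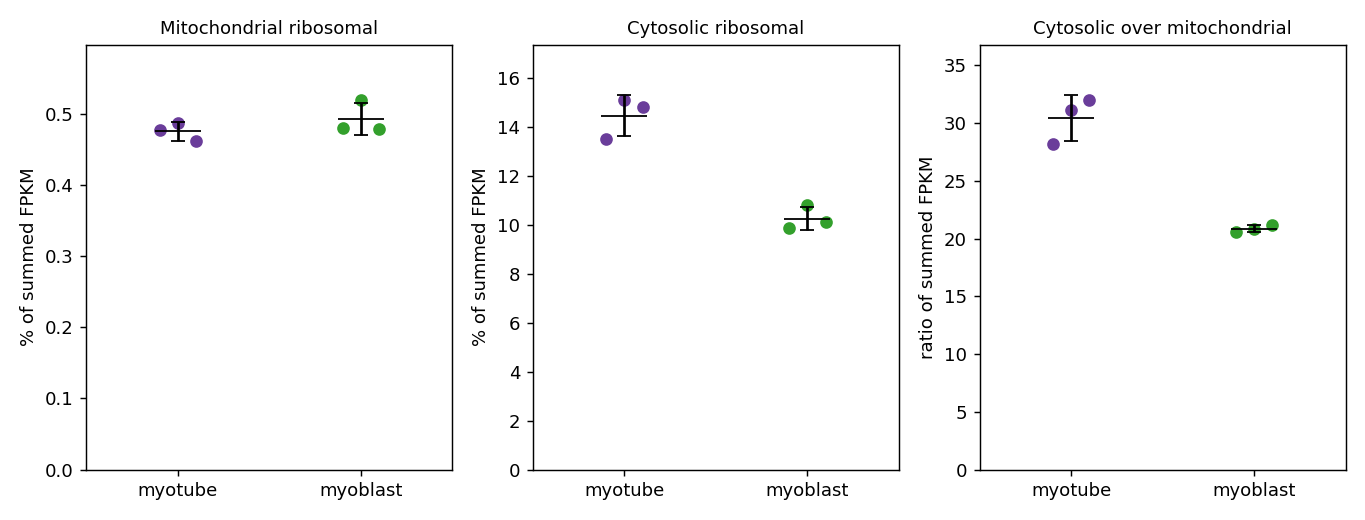
Summed FPKM of mitochondrial (left) and cytosolic (middle) ribosomal protein genes as a percent of all summed FPKM, and the ratio of the sums (right), in each library (points) with mean and SD (bars). The mitochondrial share overlaps between the groups, while the cytosolic share and the ratio are higher in all 3 myotube libraries.

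The messages that the mitochondrial ribosome translates were also measured. Of the 13 mitochondrially encoded protein genes 1 was higher, 4 were lower and 8 had no call, with a median of -0.26. Lower calls made up 30.8% and higher calls 7.69%, against 29.1% and 30.0% of all genes. In either direction 38.5% were called, against 59.1% of all genes. MT-ND2, a subunit of complex I, averaged 802 ± 134 FPKM in myotubes and 1800 ± 211 FPKM in myoblasts (-1.11 ± 0.15, adjusted p = 0.000379). ND5 of complex I (-0.75 ± 0.15), MT-CO2 of cytochrome oxidase (-0.54 ± 0.14) and MT-CYB of complex III (-0.41 ± 0.15) also fell, and MT-ND3 rose by 0.50 ± 0.10. Together the 13 genes took 5.67, 4.38 and 4.85% of summed FPKM in myotube libraries, against 6.98, 5.76 and 7.19% in myoblast libraries. On this measure the groups were close but did not overlap. As a share of counts they overlapped, with 3.95, 2.96 and 3.19% in myotube libraries and 4.44, 3.67 and 4.74% in myoblast libraries.

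Proteins of the mitochondrial ribosome that carry other names gave 3 tested genes. DAP3, the GTP-binding protein of the small subunit, had 86.9, 87.4 and 78.5 FPKM in myotube libraries, against 56.3, 62.6 and 50.8 FPKM in myoblast libraries (0.63 ± 0.09, adjusted p = 0.000475). AURKAIP1, a small-subunit protein, fell, with 55.8 ± 1.95 FPKM in myotubes and 76.6 ± 7.31 FPKM in myoblasts (-0.40 ± 0.08). CHCHD1, the third, had no call (0.28 ± 0.13, adjusted p = 0.105). PTCD3 and MRPS30 were not analysed here.

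Of 10 translation factors tested, 2 were higher, 4 were lower and 4 had no call (median -0.13, 60.0% called, against 59.1% of all genes). GFM1, the elongation factor that moves the ribosome along the message, averaged 22 ± 1.22 FPKM in myotubes and 36.5 ± 2.95 FPKM in myoblasts (-0.67 ± 0.08, adjusted p = 0.000241). LRPPRC, which binds and stabilizes mitochondrial messages, averaged 93.5 ± 1.08 FPKM in myotubes and 148 ± 5.59 FPKM in myoblasts (-0.61 ± 0.07, adjusted p = 0.000155). MRRF, the ribosome recycling factor, fell by 0.48 ± 0.09 on the log2 scale, whereas MTRF1, a release factor family member, rose by 0.58 ± 0.12.

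Of 21 assembly factors, 4 were higher, 5 were lower and 12 had no call (median -0.08, 42.9% called, against 59.1% of all genes). MPV17L2, a membrane protein needed for the ribosome's assembly in human cells, averaged 44.9 ± 4.36 FPKM in myotubes and 24.1 ± 0.118 FPKM in myoblasts (0.95 ± 0.10, adjusted p = 8.76e-05). YBEY, an RNase needed for the small subunit, rose by 0.91 ± 0.13. SPG7, a subunit of the protease that cleaves MRPL32, rose by 0.69 ± 0.07, and its partner AFG3L2 had no call (-0.10 ± 0.07, adjusted p = 0.248). C1QBP, a matrix protein that binds mitochondrial RNA and ribosomes, fell, with 254 ± 8.0 FPKM in myotubes and 425 ± 17.5 FPKM in myoblasts (-0.69 ± 0.07, adjusted p = 8.11e-05).

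In mitochondrial transcription and RNA processing, 1 of 11 genes was higher, 5 were lower and 5 had no call (median -0.19). Thus 54.5% were called, against 59.1% of all genes. ELAC2, which trims the ends of mitochondrial tRNAs, fell by 0.65 ± 0.07 on the log2 scale, the helicase gene TWNK by 0.52 ± 0.11, the RNA-degrading enzyme gene PNPT1 by 0.48 ± 0.10, the poly(A) polymerase gene MTPAP by 0.46 ± 0.07 and POLRMT, the RNA polymerase, by 0.37 ± 0.09. TFAM, which packages mitochondrial DNA and starts its transcription, averaged 49.4 ± 3.14 FPKM in myotubes and 58.6 ± 2.74 FPKM in myoblasts and had no call (-0.19 ± 0.08, adjusted p = 0.0733), though it was called lower in 7 alternative settings, library totals only among them (adjusted p = 0.0284).

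Of 7 nuclear regulators of mitochondrial genes, 1 was higher, 4 were lower and 2 had no call (median -0.46). The share called was 71.4%, against 59.1% of all genes. MYCN, a growth-promoting transcription factor, averaged 37.3 ± 2.84 FPKM in myotubes and 18.2 ± 1.56 FPKM in myoblasts (1.09 ± 0.10, adjusted p = 5.4e-05), while MYC had no call (-0.10 ± 0.12). PPRC1, a coactivator of nuclear genes for mitochondria, averaged 13.9 ± 2.04 FPKM in myotubes and 27.7 ± 3.69 FPKM in myoblasts (-0.94 ± 0.14, adjusted p = 0.000656). GABPB1 and GABPA, whose products form an activator of many nuclear genes for mitochondria, fell by 0.46 ± 0.09 and 0.22 ± 0.07 on the log2 scale. The call of GABPA was lost without any one of the libraries other than myoblast replicate 3, with adjusted p of 0.0526 to 0.128. The coactivator gene PPARGC1A was low in both states, 1.14 ± 0.155 FPKM in myotubes and 1.67 ± 0.673 FPKM in myoblasts. It had no call (adjusted p = 0.188), and without myoblast replicate 2 it was called lower (-0.74). The related gene PPARGC1B, also low, was called lower (-1.26 ± 0.21, adjusted p = 0.00118). It averaged 0.827 ± 0.236 FPKM in myotubes and 2.06 ± 0.0743 FPKM in myoblasts.

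Of 15 general mitochondrial proteins, 2 were higher, 6 were lower and 7 had no call (median -0.11, 53.3% called, against 59.1% of all genes). IMMT, which shapes the inner membrane, had a change of -0.79 ± 0.07, CYCS (cytochrome c) of -0.64 ± 0.09 and the citrate synthase gene CS of -0.54 ± 0.08. HSPA9, the matrix chaperone that pulls proteins in, rose by 0.65 ± 0.07. In all these lists, as among the members, calls went both ways. Except among the ribosomal proteins with other names, lower calls outnumbered higher ones. They made up 23.8% (assembly factors) to 57.1% (regulators) of each list, against 29.1% of all genes. Whether any list differs from all genes was not tested.

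Change and gene length moved together among the members. Spearman's rho between log2 change and the length behind the FPKM was -0.40 over 60 members, -0.22 over 61 cytosolic genes and -0.10 over all genes tested. Of 29 members under 1000 bases, 12 were higher (41.4%) and 3 were lower (10.3%), with a median of 0.17. Of all genes of that length 33.1% were higher and 20.1% lower, with a median of 0.12. Of 24 members between 1000 and 1500 bases, 2 were higher (8.33%) and 11 were lower (45.8%), with a median of -0.19, against 31.8% higher, 25.9% lower and a median of 0.05 for all genes of that length. Of 7 longer ones, 1 (MRPS6) was higher and 4 were lower, with a median of -0.29, against 29.5% higher, 31.3% lower and a median of -0.01 for all genes between 1500 and 3000 bases. Members called higher had a median length of 792 bases, those called lower 1256 bases and those without a call 966 bases. Level moved with the change as well: rho with the mean FPKM was 0.51 over members, 0.32 over cytosolic genes and 0.03 over all genes. As FPKM is scaled to that same length, level and length are tied and are not separate measures here. Genes share libraries and are not independent replicates, so these values are descriptions, and what part length or level had in the changes was not tested.

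**Figure D5:**
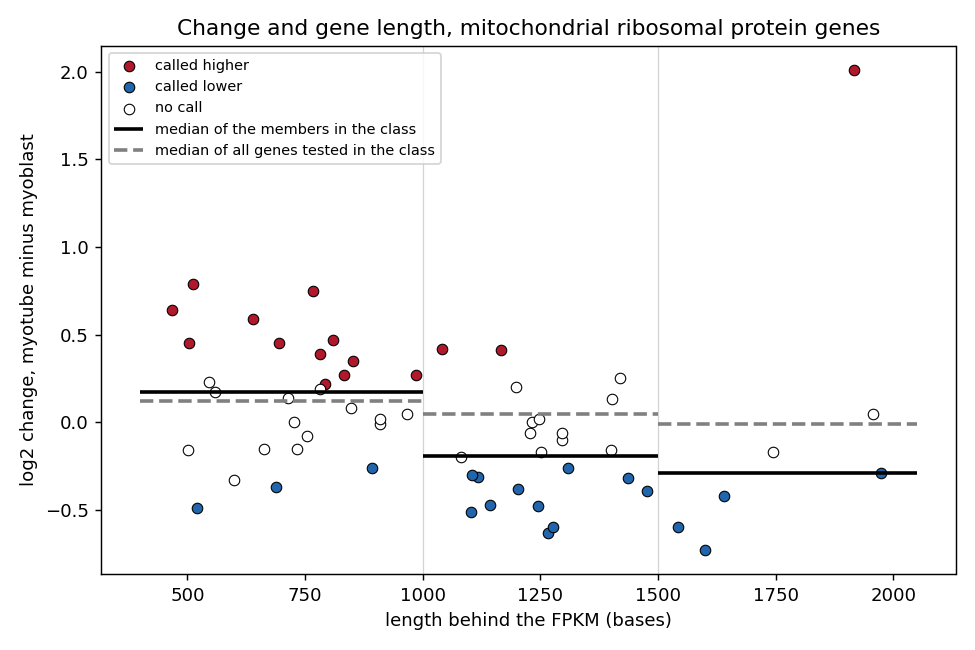
Log2 change (myotube minus myoblast, y axis) of each tested member against the length behind its FPKM in bases (x axis), coloured by call, with the median of the members (solid lines) and of all genes tested (dashed lines) in 3 length classes. The members' medians are 0.17, -0.19 and -0.29 and those of all genes 0.12, 0.05 and -0.01.

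Many members share a start region with a neighbour on the opposite strand. With both starts within 1000 bases, 16 such pairs had both genes tested, 10 to 638 bases apart, a window chosen after the values were seen. Both genes were called the same way in 2 pairs and opposite ways in 3. Over all genes, 59.1% were called, 30.0% higher and 29.1% lower, and whether the pairs differ from other gene pairs was not tested. MRPL57 and SKA3, a gene of the chromosome attachment machinery with its start 69 bases away, had changes of 0.42 and -2.44, and SKA3 had 2.94, 3.15 and 2.57 FPKM in myotube libraries, against 18.6, 19.5 and 11.1 FPKM in myoblast libraries. MRPL18 and TCP1, a subunit of the cytosolic chaperonin, both fell, by -0.26 and -0.85. In 4 pairs the neighbour fell and the member had no call, among them MRPL51 with the condensin gene NCAPD2 (0.25 and -1.27) and MRPL35 with IMMT (-0.08 and -0.79). Members of the ribosome itself, MRPS11 and MRPL46, start 20 bases apart, with changes of 0.27 and 0.05.

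Of the 61 members, 28 overlap another gene, 12 of them in the deposited tables and 21 in RefSeq. Overlap here is of whole gene spans, and whether exons are shared was not checked. As no source says whether counting used strand, whether reads of overlapping genes were mixed cannot be told. Of the 33 members that overlap no other gene, 9 were higher, 12 lower and 12 without a call (median -0.06), so 63.6% were called. Of the 27 tested members that overlap another gene, 6 were higher, 6 lower and 15 without a call, so 44.4% were called. Over all genes tested 59.1% were called, and the difference between the 2 sets of members was not tested.

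Other features of the libraries moved with the comparison. Total counts were 21893152 to 23519295 in myotube libraries and 23164541 to 27546527 in myoblast libraries. Of 13 muscle markers with an entry, 1 was higher (MYBPC1) and 8 were lower in the libraries labelled myotube, and their summed level was 1650 to 1730 FPKM there, against 2960 to 5550 FPKM in myoblast libraries. The 8 were PAX7 (-1.91), MYF5 (-2.93), MYF6 (-1.94), MYOD1 (-0.75), DES (-2.47), ACTN2 (-1.69), MYH15 (-1.31) and MEF2C (-0.86). TNNT3, TNNC2 and TMEM8C had no call. DES, ACTN2 and MYH15, of differentiated muscle, thus ran against the myotube label, which was followed here. MYOG, a regulator of muscle differentiation, was high in both states, 300.0 ± 27 FPKM in myotubes and 367 ± 138 FPKM in myoblasts, with no call. All 14 dividing-cell markers were lower (summed 234 to 283 FPKM in myotube libraries, against 765 to 1320). Of 10 fibroblast markers tested, 9 were higher (4580 to 5300 FPKM in myotube libraries, against 1240 to 2070) and POSTN was lower (-1.7). Leukocyte markers summed to 155 to 177 FPKM in myotube libraries, against 72.7 to 149. Of 8 tested, 5 were higher, CD3E was lower (-3.02), and PTPRC and SPI1 had no call. Erythroid markers summed to 4.0 to 4.72 FPKM in myotube libraries, against 25.4 to 79.0, with HBZ at 0 throughout. Of 4 tested, 3 were lower, and GATA1 had no call, at 3.75 FPKM in myotubes and 3.35 FPKM in myoblasts. Endothelial markers summed to 1.38 to 1.86 FPKM in myotube libraries, against 5.07 to 6.80, with 3 of 5 tested lower and 2 without a call. In such bulk samples fewer cells of a type and less RNA per cell cannot be told apart, and the part of these shifts in the members' changes was not tested. Myoblast replicate 3 stood apart from the other myoblast libraries, with the highest muscle sum and the lowest dividing-cell sum of the 3. Without it, all 33 calls of the members remained and MRPS7 joined them.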

How the data were processed

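Each of the 6 deposited tables gave, per the file headers, a whole-number read count per gene and the FPKM that the authors derived from it. Per the submitters' processing notes, HISAT and HTSeq were used, whereas versions, genome build, annotation and strand setting were not given in the sources used here. Tables held 26591 entries, 11074 with a symbol, and 2 lines per table that named no gene were left out. FPKM implied the table's gene length within 1% for 59.6% of the 13257 genes with at least 20 counts in every library, and another length for the rest.

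Groups came from the developmental stage labels. Counts were tested with edgeR 4.0.16 in R 4.3.3 (quasi-likelihood, two-sided, filterByExpr at a minimum count of 10, TMM scaling, no block) with Benjamini-Hochberg adjustment over 15959 genes, and calls were made at an adjusted p under 0.05. The steps were tested on simulated data, where 67 of 97 genes with a log2 change of 1 and 91 of 96 with 2 were recovered. Of 15535 unchanged genes 13 were called. Smaller changes, as most members had, were not simulated. SE was approximated as the size of the change over the square root of its F statistic. Replicate numbers did not pair the libraries. Alternatives used DESeq2 1.42.0, limma 3.58.1 and other scalings.

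The members, gene lists and named genes were chosen with earlier results of these data known. Named members were the 8 largest rises and 8 largest falls among calls with a mean of at least 2 FPKM, up to 10 calls of the rarer direction, the 4 highest and 4 lowest in level, and a fixed set. Up to 4 called genes were named per pathway list. The other called members, MRPL33, MRPL48, MRPS10, CHCHD1, AFG3L2 and PPARGC1B were named after their values were seen. So were the cytosolic and mitochondrially encoded genes and the neighbouring genes. RefSeq gene names and overlaps are from GRCg7b; none of its coordinates are printed.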

Additional observations from a re-analysis of the deposited data

How the results depend on the processing

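On log2(TPM + 1) with limma, an alternative added after seeing the data, 8 members were higher and 29 lower, 5 and 16 of the MRPL genes, 13 MRPS genes were lower, 1 cytosolic ribosomal protein gene was lower, and the members' median was -0.173. Of all genes called on the TPM scale, 39.1% were higher. At an adjusted p under 0.01, 7 MRPL genes were higher and 6 lower. With DESeq2, and with library totals only, 1 cytosolic gene was lower. Leaving out each library in turn gave 7 to 12 higher and 6 to 10 lower MRPL genes and 0 to 1 lower cytosolic genes, with 7 higher without myotube replicate 1 or myoblast replicate 1 and 6 lower without myotube replicate 3. The summed share differed by -0.0177 percentage points, and by 0.00148 as a share of counts, both within the spread. Leaving out each library gave -0.0246 (without myoblast replicate 3) to -0.00438 (without myoblast replicate 2), with -0.0108 without myotube replicate 3. The cause of these shifts was not tested. Replicate numbers shared by the groups did not pair the libraries (correlations of 0.037, 0.03 and -0.05), and the replicate block gave 15 higher and 18 lower members. With it MRPL14 and GABPA had no call (GABPA -0.22, adjusted p = 0.0526, edgeR).

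MRPL54 had too few counts to be tested, and 3 libraries a group limit the size of change that can be called. Cell state and serum cannot be told apart.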
